A study of Homo sapiens with 12 samples.

Results

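The antioxidant, glutathione and pentose phosphate genes described here are 38 genes named one by one for their role in redox defence, and all 38 were found by symbol among 28395 genes in the table. The rule names them by role and sets no threshold on a measured value, though the list was drawn up with earlier results of these data known. All 38 passed the filter on low values, so 38 of the 15057 genes tested belong to the set. They fall into 9 roles, from the regulators of the response to the pentose phosphate enzymes that supply its reducing power.

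The samples were sorted KG1a cells, a human line long kept in culture that was derived from an acute myeloid leukaemia and expresses CD34. They formed 4 groups of 3 libraries each: hypoxic bright, hypoxic dim, normoxic bright and normoxic dim. Hypoxia was 3% oxygen, and bright and dim refer to the surface level of both CD38 and CLL-1 (the lectin receptor encoded by CLEC12A) on CD34-positive cells. All groups shared the wild-type line, RPMI medium with serum, 1 batch label, mRNA enrichment and paired-end sequencing, and nothing says whether the replicates of a group were separate cultures, so p-values measure the spread between these libraries, which may be technical. The line is a single leukaemia model, and the groups differ in oxygen and in the sort gate.

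Antioxidant defence works as a relay. Reducing power from NADPH, made largely by the oxidative branch of the pentose phosphate pathway, is passed to glutathione and to thioredoxin, which in turn recharge the peroxidases that remove hydrogen peroxide and lipid peroxides. The transcription factor NRF2, encoded by NFE2L2, switches on many of these genes when oxidants or electrophiles inactivate its inhibitor KEAP1, while the haem-sensitive repressor BACH1 competes for the same DNA element. In leukaemia and in normal blood stem cells this system is known for keeping the level of reactive oxygen species low.

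The DNA element that NRF2 and BACH1 share, the antioxidant response element, has the core TGACNNNGC (GCNNNGTCA when read on the other strand). It was searched on both strands in the 250 bases before each gene start listed by RefSeq for GRCh38.p14. The table held 46 such windows for 30 of the 38 genes. The core was in 7 of these windows (15.2%), belonging to GCLM, GSTP1, KEAP1, ME1, PGD and TXNRD1, against 10.9% of all 35116 windows of the same length. All matches are shown. GCLM, ME1, TXNRD1 and PGD were called between bright and dim cells, and GSTP1 and KEAP1 were not called in any of the 5 comparisons. NFE2L2, NQO1, SRXN1, GLRX, GPX4, TXN, PRDX2, PRDX4, SOD2, MGST1 and TALDO1 were also called between these cells, but their windows held no core. HMOX1, GSR, PRDX6 and SOD1 were called and had no window. Sequences had been planned only for called genes with a fold of at least 1.5, here GCLM and ME1. Each match is written in the direction of its gene, with the core in capitals and 10 bases on either side. The whole lies before the gene start listed by RefSeq. The deposited gene positions of GCLM, ME1, KEAP1 and GSTP1 begin farther upstream, so these matches lie inside the deposited span of the gene. The match at the downstream start of TXNRD1 also lies inside its deposited span.
GCLM (chr1:93909446-93909474, minus strand): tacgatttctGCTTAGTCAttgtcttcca
ME1 (chr6:83431170-83431198, minus strand): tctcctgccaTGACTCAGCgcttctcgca
TXNRD1, upstream start (chr12:104215670-104215698, plus strand): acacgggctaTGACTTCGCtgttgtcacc
TXNRD1, downstream start (chr12:104286920-104286948, plus strand): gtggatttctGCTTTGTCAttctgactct
PGD (chr1:10398853-10398881, plus strand): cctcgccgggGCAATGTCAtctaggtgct
GSTP1 (chr11:67583736-67583764, plus strand): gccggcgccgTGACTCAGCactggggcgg
KEAP1, distal core (chr19:10502807-10502835, minus strand): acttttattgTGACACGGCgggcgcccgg
KEAP1, proximal core (chr19:10502784-10502812, minus strand): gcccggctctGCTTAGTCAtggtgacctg
The core began 34 bases before the start of GCLM, 66 before that of GSTP1, 54 and 31 before that of KEAP1, 137 before that of ME1 and 201 before that of PGD. In TXNRD1 it began 99 bases before the upstream start and 102 before the downstream start. GCLM and the proximal core of KEAP1 carried the same letters on the same strand. The core of the hypoxia response element, ACGTG, was in 10 of the 46 windows (21.7%) against 18.5% of all windows, and the E-box CACGTG, which overlaps it, was in 3 (6.5%) against 6.3%. A match of letters is a description of the window and not a binding site, and distant elements were not searched.

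The libraries had been scaled to similar size, with normalized values summing to between 31828256 and 32560463. CD38 was 9.23-fold higher in bright than in dim cells in hypoxia and 12.7-fold higher in normoxia, while CLEC12A stayed at a mean of 13.3 to 21 in the 4 groups and did not pass between bright and dim cells at either oxygen level. Of 11 genes that oxygen lack is known to raise, 5 passed as higher in hypoxic than in normoxic bright cells (BNIP3, P4HA1, PFKFB4, ANKRD37 and VEGFA) and 0 passed in dim cells. In bright cells only CA9 and EGLN3 were lower in hypoxia, 19.5-fold and 3.82-fold, and neither passed. In dim cells ANKRD37, VEGFA and PFKFB4 were higher with no overlap, while PDK1 and SLC2A1 were slightly lower. Of the 11 only P4HA1 passed in the test of whether the hypoxia effect differed between the subsets. Some libraries also held transcripts listed here as markers of other cell types, and which cells they came from was not tested. The summed value of 15 airway epithelium markers ranged from 75 to 1188 in hypoxic bright, 1116 to 18949 in hypoxic dim, 281 to 7310 in normoxic bright and 205 to 283 in normoxic dim libraries. The sum of 16 skeletal muscle markers ran from 650 to 898 in hypoxic bright, 764 to 1232 in hypoxic dim, 693 to 5117 in normoxic bright and 2331 to 7276 in normoxic dim libraries. That of 7 neutrophil granule markers ran from 68 to 98 in hypoxic bright, 85 to 15204 in hypoxic dim, 226 to 1787 in normoxic bright and 93 to 174 in normoxic dim libraries. The sum of 15204, in hypoxic dim replicate 1, came mainly from ELANE, PRTN3, AZU1 and MPO, at 1526, 7043, 1936 and 4618. MS4A3, at 44, was also highest there. CTSG and RNASE2, at 15 and 22, lay within their range in the other libraries. Of 10 erythroid markers HBA1, HBG1, HBG2 and AHSP were among those at 0 in all 12 libraries. In such bulk samples fewer cells of a type and less RNA per cell cannot be told apart.

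Per kilobase of transcript the genes spanned almost the whole range of the table. PRDX1, a cytosolic peroxiredoxin, averaged 34902 normalized units per kilobase over the 12 libraries, rank 52 of 15057 genes. GSTP1, the main cytosolic glutathione transferase of many tumour cells, followed with 23120 per kilobase (rank 82) and SOD1, the copper and zinc superoxide dismutase, with 9761 (rank 151). At the other end ME1 and GPX8 averaged 4.72 and 4.15 per kilobase, ranks 13878 and 14033. TXN, GPX4, PRDX2, TALDO1 and TKT lay between 5205 per kilobase (TKT) and 6935 (TXN). The strand of counting is not given in the sources used here, and exons of PRDX1, GSS and TXNRD2 overlap exons of a gene on the other strand, so that reads of the overlap could belong to either gene. Processed copies of several genes of the set exist in the genome, among them TXN, PRDX1, PRDX2, PRDX3, SOD1, GLRX and GPX1, and reads of such copies could have been assigned to either.

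In hypoxia 16 of the 38 genes were called lower in bright than in dim cells and 2 higher, where 13.6% and 12.9% of all genes tested were called lower and higher. In normoxia 4 were called lower and 2 higher, against 3.79% and 2.88% of all genes tested. The 4 called lower in normoxia (SRXN1, GCLM, GSR and TXNRD1) were also called lower in hypoxia, and SOD2 was called higher at both oxygen levels. The median log2 fold change of the 38 genes, bright over dim, was -0.21 in hypoxia and 0.01 in normoxia, where the median of all genes tested was -0.03 and -0.01. Without GPX8 and ME1, the genes with the lowest values, the hypoxic counts were 15 lower and 2 higher of 36 and the median was -0.19. Of the 18 calls in hypoxia 9 were kept without each single library in turn, and of the 6 in normoxia 1. All calls lost without some single library were also lost with the log2 airway marker sum as a covariate.

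**Figure D1:**
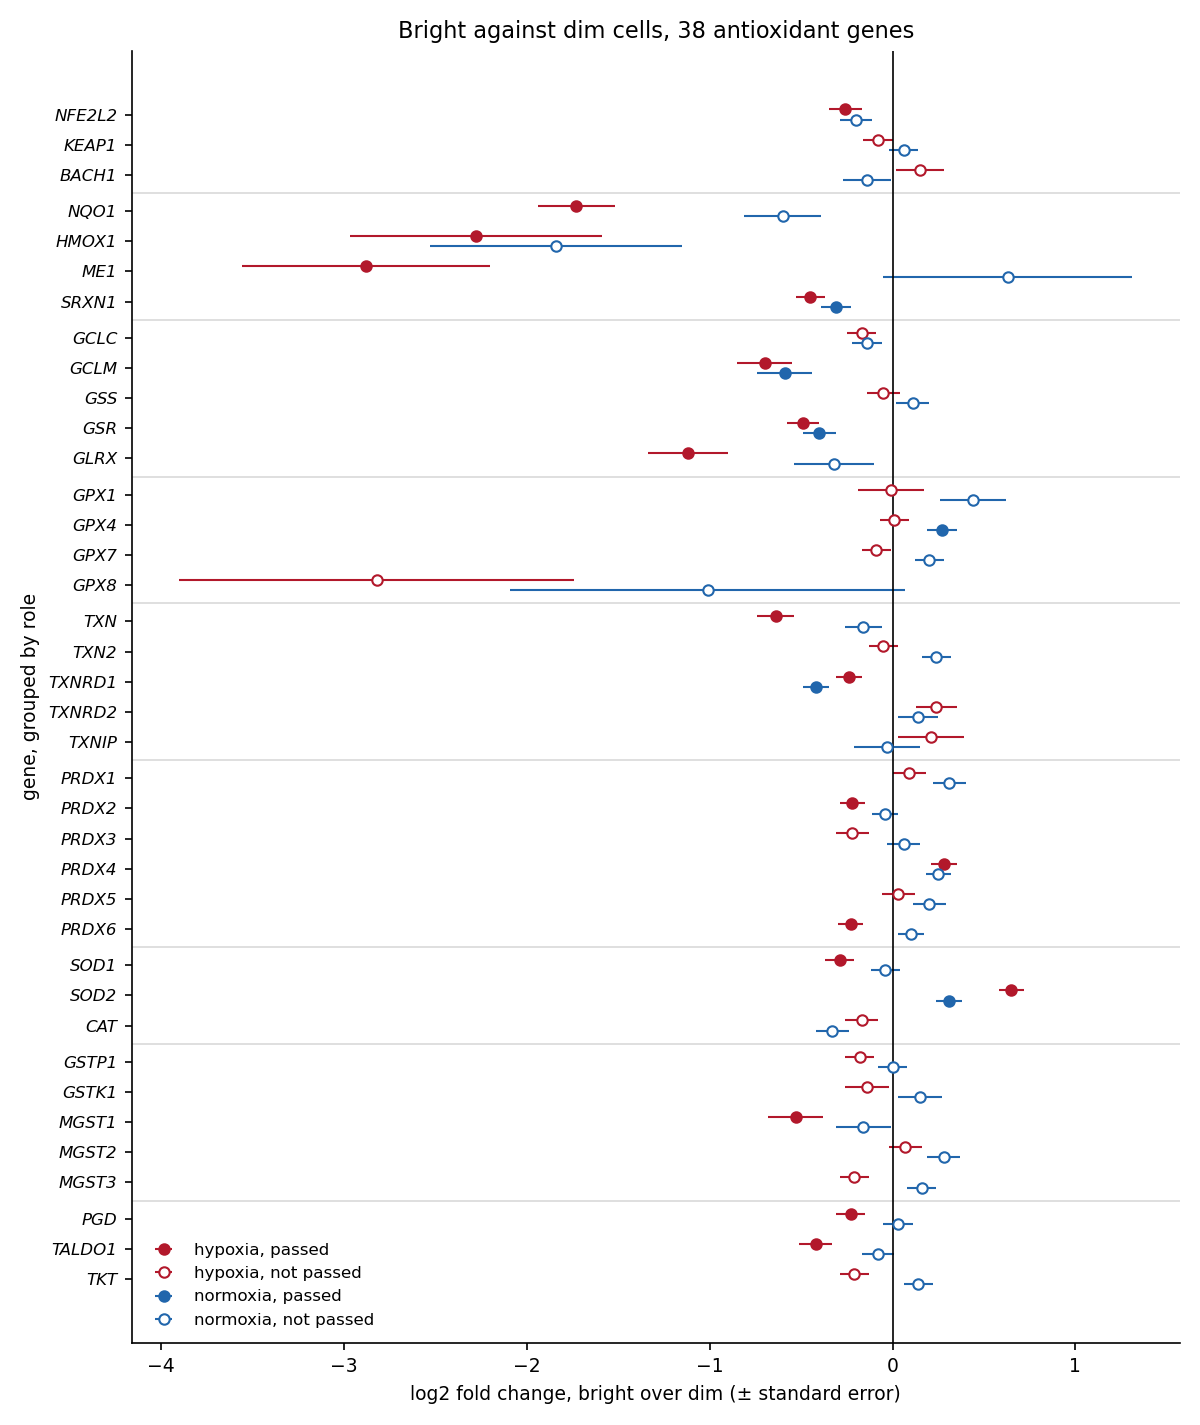
Log2 fold change of bright over dim cells (horizontal axis, ± standard error) for each of the 38 genes, grouped by role, in hypoxia (red) and normoxia (blue), with filled circles for genes that passed an adjusted p of 0.05. NQO1, HMOX1, ME1 and GLRX lie farthest to the left among the filled hypoxia points, and SOD2 is the only gene filled on the right at both oxygen levels.

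Of the 3 regulators 1 was called between bright and dim cells, in hypoxia. NFE2L2, which encodes NRF2, had values of 1944, 1875 and 1828 in hypoxic bright and 2141, 2191 and 2443 in hypoxic dim libraries, and 1856, 2090 and 2268 in normoxic bright against 2536, 2241 and 2323 in normoxic dim libraries. The bright libraries were below the dim ones in hypoxia, with no overlap, whereas in normoxia 1 bright library exceeded a dim one. The log2 fold change of bright over dim cells was -0.26 ± 0.09 (standard error, as for all log2 fold changes given here; adjusted p = 0.0401) in hypoxia and -0.20 ± 0.09 (adjusted p = 0.24) in normoxia. The hypoxic call was lost without hypoxic dim replicate 2 or 3, or without any 1 of the 3 hypoxic bright replicates, at log2 fold changes of -0.28 to -0.20 and adjusted p-values of 0.0719 to 0.11. It was also lost with the log2 airway sum as a covariate. Over all 20 alternatives the hypoxic log2 fold change ran from -0.30 to -0.19. KEAP1, the adaptor that sends NRF2 for degradation, had 6035, 6105 and 6647 in hypoxic bright and 6595, 7198 and 6073 in hypoxic dim libraries. Its normoxic values were 7442, 6611 and 6833 in bright and 6428, 6779 and 6775 in dim libraries, so that the subsets overlapped at both oxygen levels. BACH1, the repressor, had 1115, 1122 and 950 in hypoxic bright against 981, 788 and 1116 in hypoxic dim libraries, and 983, 1034 and 1078 in normoxic bright against 1027, 1281 and 1105 in normoxic dim libraries. Neither KEAP1 nor BACH1 passed in any of the 5 comparisons.

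The 4 enzymes grouped here under the role of NRF2 targets were all called lower in bright than in dim cells in hypoxia. NRF2 also switches on genes placed under other roles, so this is not a count over all its targets. NQO1 (chr16:69709401-69726668, minus strand; positions of genes are those of the deposited table, on hg38), a quinone reductase that is widely used as a readout of NRF2, had values of 388, 425 and 586 in hypoxic bright and 1043, 2100 and 1605 in hypoxic dim libraries, and 1020, 1029 and 941 in normoxic bright against 1454, 1411 and 1661 in normoxic dim libraries. Every bright library lay below every dim library at the same oxygen level, and the hypoxic bright libraries were the lowest of all 12. NQO1 was 3.31-fold lower in bright than in dim cells in hypoxia (log2 fold change -1.73 ± 0.21, adjusted p = 0.000132), and this call was kept under all 20 alternatives, at log2 fold changes of -2.00 to -1.18. In normoxia the log2 fold change was -0.60 ± 0.21 and the adjusted p 0.12. The hypoxic dim library with the highest NQO1 value, replicate 2, also had the highest airway marker sum. Without that library and the next highest in those markers, hypoxic dim replicate 3, the log2 fold change was -1.18 (adjusted p = 0.00164), and with the log2 marker sum as a covariate it was -1.52 (adjusted p = 0.00513). The first of these leaves 1 hypoxic dim library, assumed to vary like the other groups. Of 13 airway markers tested, 4 were called lower in bright than in dim cells in hypoxia and 3 higher in normoxia, and their part in the results for NQO1 was not tested further.

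HMOX1 (chr22:35381067-35394214, plus strand), the inducible haem oxygenase and a target of both NRF2 and BACH1, had 57, 36 and 65 in hypoxic bright and 253, 245 and 259 in hypoxic dim libraries. In normoxia it had 1064, 88 and 136 in bright and 1568, 465 and 810 in dim libraries. The hypoxic groups were tight and far apart, while in normoxia bright replicate 1 lay inside the range of the dim libraries. The log2 fold change was -2.28 ± 0.69 in hypoxia (adjusted p = 0.0273) and -1.84 ± 0.69 in normoxia (adjusted p = 0.158). The standard error is shared by all 4 groups and so carries the normoxic spread. The hypoxic call was lost without hypoxic dim replicate 2 or 3 or hypoxic bright replicate 1 or 2, at -2.36 to -2.03 and adjusted p-values of 0.0505 to 0.101. The 4 libraries with the highest HMOX1 values were also the 4 with the highest skeletal muscle sums, normoxic bright replicate 1 with 5117 and normoxic dim replicates 1 to 3 with 7276, 2331 and 2916. With the log2 muscle sum as a covariate the bright over dim log2 fold change was -2.03 (adjusted p = 0.000739) in hypoxia and -0.40 (adjusted p = 0.593) in normoxia, and without normoxic bright replicate 1 it was -2.93 in normoxia (adjusted p = 0.000505). Of the 16 muscle markers 0 passed in any of the 5 comparisons, and their part in the HMOX1 values was not tested further.

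SRXN1 (chr20:646615-653370, minus strand), sulfiredoxin, which restores over-oxidised peroxiredoxins, had 2261, 2312 and 2466 in hypoxic bright and 3296, 3397 and 2955 in hypoxic dim libraries, and 3236, 2816 and 2763 in normoxic bright against 3705, 3674 and 3505 in normoxic dim libraries. The subsets did not overlap at either oxygen level. The log2 fold change was -0.45 ± 0.08 in hypoxia (adjusted p = 0.00167), kept under all 20 alternatives, and -0.31 ± 0.08 in normoxia (adjusted p = 0.0331). The normoxic call was lost without any 1 of the 3 normoxic dim replicates or normoxic bright replicate 2 or 3, at -0.33 to -0.26 and adjusted p-values of 0.0729 to 0.129. ME1 (chr6:83210389-83431741, minus strand), the cytosolic malic enzyme that makes NADPH, was close to the limit of detection, with 3, 6 and 1 in hypoxic bright, 13, 78 and 19 in hypoxic dim, 23, 31 and 13 in normoxic bright and 15, 19 and 8 in normoxic dim libraries. It was called lower in bright than in dim cells in hypoxia (log2 fold change -2.88 ± 0.68 on the scale with 1 added, adjusted p = 0.00817). Its highest value fell in the library with the highest airway marker sum. The call was lost without the pair of hypoxic dim libraries highest in those markers (-1.87, adjusted p = 0.135) and with the log2 marker sum as a covariate (-1.26, adjusted p = 0.232).

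**Figure D2:**
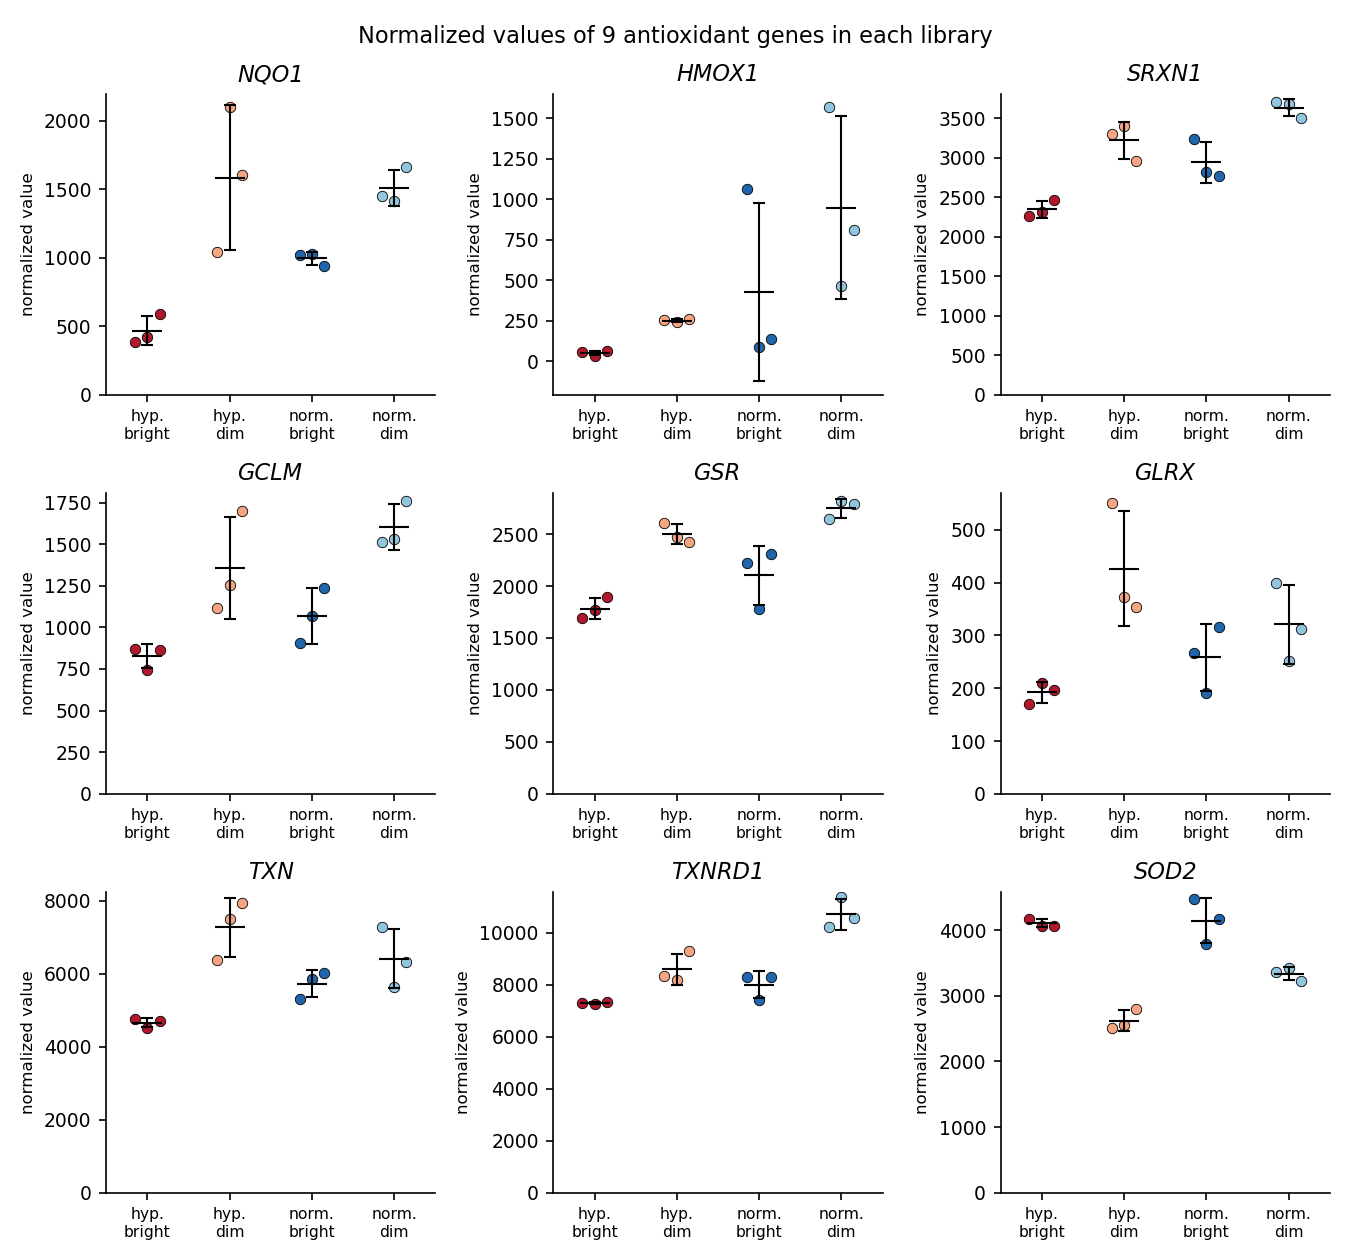
Normalized values (vertical axis, starting at or below 0) of 9 genes in each of the 12 libraries, by group, with the mean and SD of 3 libraries as bars; hyp. is hypoxic and norm. normoxic. The hypoxic bright points of NQO1 sit between 388 and 586, below every other library, and those of SOD2 between 4067 and 4178, above every hypoxic dim library.

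Among the genes that make and recycle glutathione, 3 of 5 were called lower in bright than in dim cells in hypoxia and 2 of 5 in normoxia. GCLM (chr1:93885205-93909598, minus strand), the modifier subunit of glutamate-cysteine ligase, the first enzyme of glutathione synthesis, had 869, 743 and 865 in hypoxic bright and 1114, 1257 and 1701 in hypoxic dim libraries, and 904, 1067 and 1239 in normoxic bright against 1511, 1534 and 1760 in normoxic dim libraries. All bright libraries lay below all dim libraries at the same oxygen level. GCLM was 1.62-fold lower in hypoxia (log2 fold change -0.70 ± 0.15, adjusted p = 0.00503) and 1.51-fold lower in normoxia (-0.59 ± 0.15, adjusted p = 0.0306). The hypoxic call was lost without the pair of hypoxic libraries highest in airway markers (-0.44, with 1 hypoxic dim library left) or in muscle markers (-0.67, adjusted p = 0.0586). The muscle pair was hypoxic dim replicate 2, which also had the highest airway sum, and hypoxic bright replicate 2. Their muscle sums were 1232 and 898, against 650 to 875 in the other hypoxic libraries. A dependence on muscle transcripts cannot be read from this setting. The normoxic call was lost without any 1 of the 3 normoxic dim replicates or normoxic bright replicate 1 or 2, at -0.63 to -0.47 and adjusted p-values of 0.0691 to 0.137. It was also lost with the log2 airway sum as a covariate. Over all 20 alternatives the normoxic log2 fold change ran from -0.74 to -0.37. GCLC, the catalytic subunit of the same enzyme, had values of 2181 to 2253 in hypoxic bright and 2342 to 2616 in hypoxic dim libraries, which did not overlap, but did not pass (log2 fold change -0.17 ± 0.08, adjusted p = 0.115). GSS, which adds glycine in the second step, did not pass in any comparison.

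GSR, the reductase that recycles oxidised glutathione with NADPH, had 1689, 1767 and 1890 in hypoxic bright and 2609, 2474 and 2428 in hypoxic dim libraries, and 2222, 1777 and 2311 in normoxic bright against 2645, 2815 and 2792 in normoxic dim libraries. The subsets were apart at both oxygen levels. The log2 fold change was -0.49 ± 0.09 in hypoxia (adjusted p = 0.00252), kept under all 20 alternatives, and -0.40 ± 0.09 in normoxia (adjusted p = 0.0199). The normoxic call was lost without normoxic dim replicate 2 or 3 or normoxic bright replicate 2, at -0.38 to -0.28 and adjusted p-values of 0.0708 to 0.0794. It was also lost with the log2 airway sum as a covariate. Over all 20 alternatives the normoxic log2 fold change ran from -0.47 to -0.25. GLRX (chr5:95813849-95822873, minus strand), the glutaredoxin that removes glutathione from protein thiols, had 171, 210 and 197 in hypoxic bright and 552, 373 and 354 in hypoxic dim libraries, and 267, 191 and 317 in normoxic bright against 400, 252 and 312 in normoxic dim libraries. It was 2.17-fold lower in bright than in dim cells in hypoxia, with no overlap (log2 fold change -1.12 ± 0.22, adjusted p = 0.00324, kept under all 20 alternatives), whereas in normoxia the subsets overlapped (-0.32 ± 0.22, adjusted p = 0.492).

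Of the 4 glutathione peroxidases 0 were called lower in bright than in dim cells at either oxygen level, and 1 was called higher. GPX4, which reduces lipid peroxides in membranes, was higher in bright than in dim cells in normoxia, at 8786, 8874 and 8397 against 7305, 6872 and 7372 (log2 fold change 0.27 ± 0.08, adjusted p = 0.0485), but this call was lost without any 1 of the 6 libraries, at 0.24 to 0.30 and adjusted p-values of 0.0694 to 0.162. In hypoxia it had 7451, 7953 and 8875 in bright and 7984, 8672 and 7487 in dim libraries, which overlapped (0.01 ± 0.08). GPX1, the abundant cytosolic peroxidase, had 2895, 2944 and 3187 in hypoxic bright and 4542, 2752 and 2239 in hypoxic dim libraries, and 3253, 3076 and 3397 in normoxic bright against 2367, 2295 and 2486 in normoxic dim libraries. The normoxic subsets were apart and the hypoxic ones overlapped because hypoxic dim replicate 1 had the highest value of all 12. That library also had a neutrophil granule sum of 15204, against 68 to 1787 in the other 11, and 3 of the 7 granule markers were called lower in bright than in dim cells in hypoxia. The log2 fold change in hypoxia was -0.01 ± 0.18 (adjusted p = 0.963) with all libraries and 0.28 without that library, where GPX1 was called higher in bright cells (adjusted p = 0.0431). Without the pair of hypoxic dim libraries highest in airway markers, which leaves that library alone in its group, it was -0.60 (adjusted p = 0.00172). GPX7 and GPX8, peroxidases of the endoplasmic reticulum, did not pass between bright and dim cells with all libraries, and GPX8 had values of 0 to 51. GPX8 was called lower in hypoxic bright cells without hypoxic dim replicate 3 (-3.59, adjusted p = 0.0341).

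**Figure D3:**
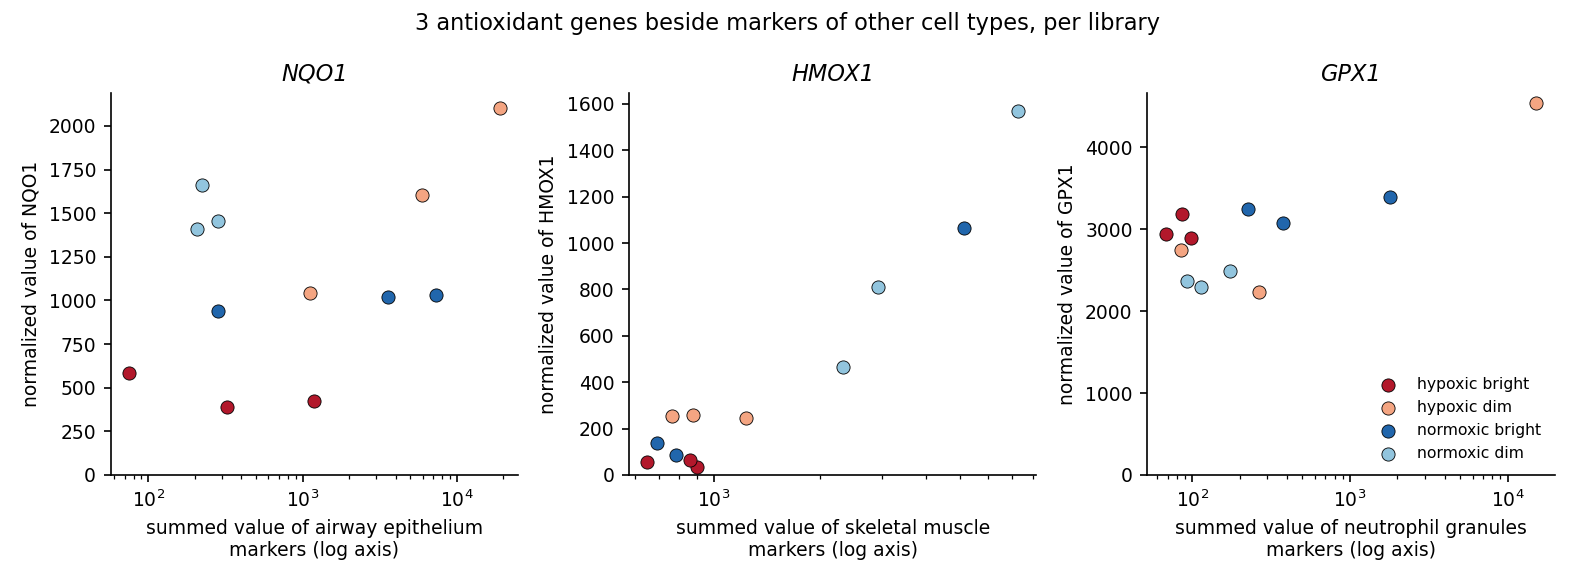
Normalized values of NQO1, HMOX1 and GPX1 (vertical axes) against the summed values of airway epithelium, skeletal muscle and neutrophil granule markers (horizontal log axes), 1 point per library, coloured by group. The 4 libraries with muscle sums of 2331 or more hold the 4 highest HMOX1 values, 1 library with a granule sum of 15204 holds the highest GPX1 value, and the hypoxic dim library with the highest airway sum, 18949, holds the highest NQO1 value, 2100.

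In the thioredoxin system the cytosolic pair was called lower in bright than in dim cells in hypoxia, and the mitochondrial pair did not pass. TXN (chr9:110243812-110256640, minus strand), the cytosolic thioredoxin, had 4750, 4513 and 4712 in hypoxic bright and 6384, 7493 and 7945 in hypoxic dim libraries, and 5309, 5848 and 6030 in normoxic bright against 7276, 5651 and 6329 in normoxic dim libraries. The hypoxic bright libraries were the lowest of all 12, and in normoxia the subsets overlapped. TXN was 1.56-fold lower in bright than in dim cells in hypoxia (log2 fold change -0.64 ± 0.10, adjusted p = 0.000784, kept under all 20 alternatives), against -0.16 ± 0.10 (adjusted p = 0.435) in normoxia. TXNRD1 (chr12:104215779-104350307, plus strand), the cytosolic reductase that recharges thioredoxin, had 7294, 7250 and 7351 in hypoxic bright and 8351, 8174 and 9294 in hypoxic dim libraries, and 8314, 7427 and 8293 in normoxic bright against 10213, 11388 and 10564 in normoxic dim libraries. The subsets were apart at both oxygen levels, and the normoxic dim libraries were the highest of all 12. Its log2 fold change was -0.24 ± 0.07 in hypoxia (adjusted p = 0.0268) and -0.42 ± 0.07 in normoxia (adjusted p = 0.00252). The hypoxic call was lost without hypoxic dim replicate 3 or any 1 of the 3 hypoxic bright replicates, at -0.24 to -0.18 and adjusted p-values of 0.0579 to 0.0864, and the normoxic call held without each single library but not without the pair of normoxic bright libraries highest in airway markers (-0.37, adjusted p = 0.0641). TXN2 and TXNRD2, the mitochondrial counterparts, did not pass at either oxygen level, with log2 fold changes of -0.05 ± 0.08 and 0.24 ± 0.11 in hypoxia and 0.24 ± 0.08 and 0.14 ± 0.11 in normoxia.

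TXNIP, the inhibitor that binds thioredoxin and that glucose is known to induce, had 3384, 2805 and 2657 in hypoxic bright and 3656, 2078 and 2140 in hypoxic dim libraries. It did not pass with all libraries (log2 fold change 0.21 ± 0.18, adjusted p = 0.4). Hypoxic dim replicate 1 was again the high library, and without it TXNIP was called higher in bright cells at 0.48 (adjusted p = 0.00976). In normoxia the values were 2588, 2524 and 2726 in bright and 3080, 2414 and 2570 in dim libraries, with a log2 fold change of -0.03 ± 0.18.

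Of the 6 peroxiredoxins, enzymes that remove hydrogen peroxide, 1 was called higher and 2 lower in bright than in dim cells in hypoxia. PRDX4, the form of the endoplasmic reticulum, was higher in bright cells, with 4407, 4643 and 4145 in hypoxic bright and 3502, 3772 and 3581 in hypoxic dim libraries, and 4690, 4322 and 4805 in normoxic bright against 3926, 3691 and 4037 in normoxic dim libraries. The subsets were apart at both oxygen levels, and only the hypoxic difference passed (log2 fold change 0.28 ± 0.07, adjusted p = 0.0105, against 0.25 ± 0.07, adjusted p = 0.0531, in normoxia). The hypoxic call was lost without hypoxic bright replicate 2 (0.24, adjusted p = 0.0608). PRDX2, a cytosolic form, and PRDX6, which uses glutathione in place of thioredoxin, were called lower in bright than in dim cells in hypoxia by small amounts, at -0.22 ± 0.07 (adjusted p = 0.0471) and -0.23 ± 0.07 (adjusted p = 0.0224). The subsets overlapped for PRDX2, at 5912 to 6235 in hypoxic bright and 6202 to 7501 in hypoxic dim libraries. For PRDX6 they did not, at 6408 to 6633 and 7350 to 7792. The PRDX2 call was lost without hypoxic dim replicate 1 or 2 or any 1 of the 3 hypoxic bright replicates, at -0.24 to -0.17 and adjusted p-values of 0.0672 to 0.174. The PRDX6 call was lost without replicate 1 or 2 of either hypoxic group, at -0.22 to -0.21 and adjusted p-values of 0.0568 to 0.0831. PRDX1, PRDX3 (mitochondrial) and PRDX5 did not pass between bright and dim cells at either oxygen level.

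SOD2 (chr6:159679116-159693321, minus strand), the manganese superoxide dismutase of mitochondria, was called higher in bright than in dim cells at both oxygen levels. It had 4178, 4071 and 4067 in hypoxic bright and 2503, 2561 and 2805 in hypoxic dim libraries, and 4479, 3795 and 4165 in normoxic bright against 3358, 3432 and 3229 in normoxic dim libraries. The subsets were apart at both oxygen levels, and the hypoxic dim libraries were the lowest of all 12. SOD2 was 1.57-fold higher in bright cells in hypoxia (log2 fold change 0.65 ± 0.07, adjusted p = 8.66e-05, kept under all 20 alternatives) and 1.24-fold higher in normoxia (0.31 ± 0.07, adjusted p = 0.0206). The normoxic call was lost without replicate 1 or 3 of either normoxic group, at 0.25 to 0.31 and adjusted p-values of 0.0567 to 0.0965. SOD1, its cytosolic counterpart, went the other way in hypoxia, at 8281, 8153 and 8971 in bright and 9858, 11197 and 10063 in dim libraries (-0.29 ± 0.08, adjusted p = 0.0155). The SOD1 call was lost without hypoxic dim replicate 2 or hypoxic bright replicate 1 or 2, at -0.28 to -0.24 and adjusted p-values of 0.0587 to 0.0728. It was also lost with the log2 airway sum as a covariate. Over all 20 alternatives the SOD1 log2 fold change ran from -0.33 to -0.21. CAT, the peroxisomal catalase, did not pass with all libraries, at -0.17 ± 0.09 (adjusted p = 0.189) in hypoxia and -0.33 ± 0.09 (adjusted p = 0.0507) in normoxia, and was called lower in normoxic bright cells without normoxic dim replicate 3 (-0.42, adjusted p = 0.0315).

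Of the 5 glutathione transferases, which join glutathione to electrophiles, only MGST1 passed between bright and dim cells. MGST1, a membrane-bound form of the endoplasmic reticulum and outer mitochondrial membrane, had 2154, 2237 and 2353 in hypoxic bright and 2707, 3472 and 3659 in hypoxic dim libraries, with no overlap. Its log2 fold change was -0.53 ± 0.15 (adjusted p = 0.0219). The MGST1 call was lost without hypoxic dim replicate 2 or 3 or hypoxic bright replicate 1 or 2, at -0.53 to -0.45 and adjusted p-values of 0.0622 to 0.0781. It was also lost with the log2 airway sum as a covariate. Over all 20 alternatives the log2 fold change ran from -0.67 to -0.27. GSTP1, far more abundant, had 20650, 20136 and 22076 in hypoxic bright and 23080, 25688 and 22521 in hypoxic dim libraries and did not pass (-0.18 ± 0.08, adjusted p = 0.0949). GSTK1, MGST2 and MGST3 had hypoxic log2 fold changes of -0.14, 0.07 and -0.21 and did not pass. GSTK1 was called lower in hypoxic bright cells without hypoxic dim replicate 3 (-0.29, adjusted p = 0.0349), and MGST2 higher in normoxic bright cells without normoxic dim replicate 1 (0.39, adjusted p = 0.0242).

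Of the 3 pentose phosphate genes 2 were called lower in bright than in dim cells in hypoxia. TALDO1, transaldolase of the non-oxidative branch, had 5305, 5445 and 6200 in hypoxic bright and 8637, 7481 and 6678 in hypoxic dim libraries, which did not overlap (log2 fold change -0.42 ± 0.09, adjusted p = 0.00523). Of the 20 alternatives 1 ended that call, leaving out the pair of hypoxic libraries highest in muscle markers (-0.41, adjusted p = 0.0704). That pair, replicate 2 of hypoxic dim and of hypoxic bright, had muscle sums of 1232 and 898. The other hypoxic libraries had 650 to 875, so this setting cannot show a dependence on muscle transcripts. PGD, which makes NADPH in the oxidative branch, had 7366, 7693 and 8652 in hypoxic bright and 9991, 9382 and 8366 in hypoxic dim libraries, which overlapped (-0.23 ± 0.08, adjusted p = 0.0446). The PGD call was lost without replicate 1 or 2 of either hypoxic group, at -0.21 to -0.17 and adjusted p-values of 0.119 to 0.172. TKT, transketolase, had 14147, 14556 and 17087 in hypoxic bright and 18463, 18678 and 15778 in hypoxic dim libraries and did not pass (-0.21 ± 0.08, adjusted p = 0.0773). TKT was called lower without replicate 3 of either hypoxic group (-0.29 in both cases, adjusted p = 0.0177 and 0.0237). In normoxia all 3 genes had log2 fold changes between -0.08 and 0.14, and 0 passed.

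Fewer of these genes passed between the oxygen levels than between the subsets, and the same held for all genes tested. In bright cells 1 of the 38 genes, NQO1, was called lower in hypoxia than in normoxia and 0 higher, where 0.359% and 0.478% of all genes tested were called lower and higher. NQO1 was 2.17-fold lower in hypoxic than in normoxic bright cells (log2 fold change -1.12 ± 0.21, adjusted p = 0.0288), with the 3 hypoxic libraries at 388 to 586 and the 3 normoxic ones at 941 to 1029. This call was lost without hypoxic bright replicate 1 or 2 or any 1 of the 3 normoxic bright replicates, at -1.16 to -1.0 and adjusted p-values of 0.0593 to 0.169. At an unadjusted p under 0.05, 9 genes were lower and 0 higher in hypoxic bright cells, beside 8.05% and 7.43% of all genes tested. These 9 were NQO1, HMOX1, ME1, SRXN1, GCLM, GSR, TXN, TALDO1 and TKT. This comparison and that of bright with dim cells in hypoxia share the hypoxic bright libraries. HMOX1 had a log2 fold change of -2.17 ± 0.69 (adjusted p = 0.155), which was -1.08 (adjusted p = 0.231) without normoxic bright replicate 1, -0.84 (adjusted p = 0.568) without the pair of bright libraries highest in muscle markers and -1.32 (adjusted p = 0.105) with the log2 muscle sum as a covariate. SRXN1 had a log2 fold change of -0.32 ± 0.08 (adjusted p = 0.0749) and TXN of -0.30 ± 0.10 (adjusted p = 0.176). The median over the 38 genes was -0.13, beside -0.00 over all genes tested.

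In dim cells 0 of the 38 genes passed in either direction between hypoxia and normoxia, where 0.199% of all genes tested were called higher and 0.0332% lower. At an unadjusted p under 0.05, limma gave 5 higher and 4 lower, beside 8.48% and 8.96% of all genes tested. The lowest adjusted p-values were those of SOD2, at 2503 to 2805 in hypoxic and 3229 to 3432 in normoxic dim libraries (log2 fold change -0.35 ± 0.07, adjusted p = 0.0713), and TXNRD1, at 8174 to 9294 in hypoxic and 10213 to 11388 in normoxic dim libraries (-0.32 ± 0.07, adjusted p = 0.0926). Without hypoxic dim replicate 3, 4 genes were called, SOD2 (-0.40, adjusted p = 0.019) and TXNRD1 (-0.37, adjusted p = 0.0192) lower and PRDX2 (0.30, adjusted p = 0.0264) and GSTK1 (0.39, adjusted p = 0.0385) higher, where 4.23% of all genes tested were called in either direction in that fit, against 0.232% with all libraries. HMOX1, at 245 to 259 in hypoxic and 465 to 1568 in normoxic dim libraries, had a log2 fold change of -1.73 ± 0.69 (adjusted p = 0.22), and of 0.31 (adjusted p = 0.754) with the log2 muscle sum as a covariate. The median over the 38 genes was 0.11, beside 0.00 over all genes tested.

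**Figure D4:**
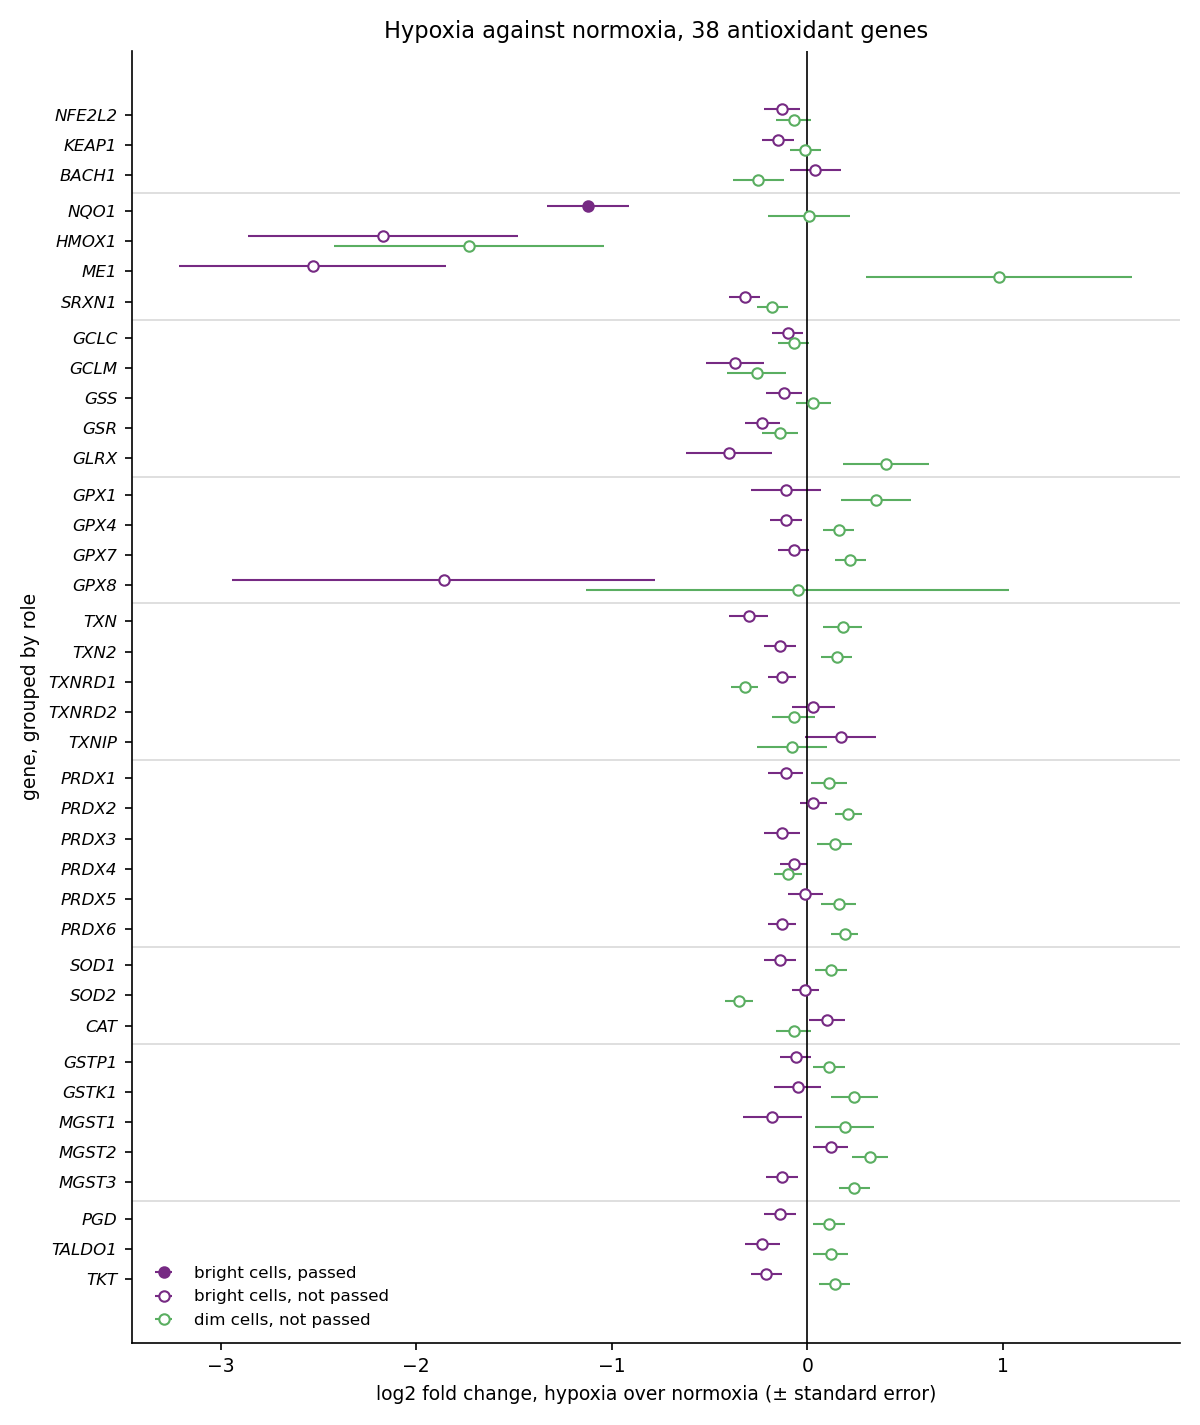
Log2 fold change of hypoxia over normoxia (horizontal axis, ± standard error) for each of the 38 genes, grouped by role, in bright cells (purple) and dim cells (green), with filled circles for genes that passed an adjusted p of 0.05. NQO1 in bright cells is the only filled point.

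Whether bright and dim cells responded differently to oxygen was tested as the difference of the effects of hypoxia, bright minus dim. None of the 38 genes passed with all 12 libraries (0 higher and 0 lower), where 1.10% of all genes tested were called higher and 1.26% lower. At an unadjusted p under 0.05, limma gave 14 genes in either direction, beside 22.0% of all genes tested; 13 of the 14 were below 0, and 31 of 38 estimates were below 0, beside 50.2% of all genes. NQO1 had the lowest adjusted p, at a difference of -1.13 ± 0.29 on the log2 scale (adjusted p = 0.0574), followed by ME1 (-3.51 ± 0.96, adjusted p = 0.0662), PRDX6 (-0.33 ± 0.09, adjusted p = 0.0729) and TXN (-0.48 ± 0.14, adjusted p = 0.0784). SOD2 was the 1 gene above 0 among the 14, at 0.34 ± 0.10 (adjusted p = 0.0866). The count was 9 without hypoxic dim replicate 3, with 8 lower (NQO1, ME1, TXN2, PRDX6, GSTK1, MGST3, TALDO1 and TKT) and SOD2 higher, where 10.1% of all genes tested were called in either direction in that fit, against 2.36% with all libraries. It was 3 without hypoxic dim replicate 1 (NQO1, ME1 and TXN; 3.31% of all genes), 2 without normoxic dim replicate 1 (TXN and PRDX6; 4.34%), 1 without normoxic bright replicate 1 (SOD2; 4.13%) and 1 without hypoxic bright replicate 3 (NQO1; 2.22%). The NQO1 difference was -1.40 without hypoxic dim replicate 1 (adjusted p = 0.00794) and -0.87 without the pair of libraries highest in airway markers (adjusted p = 0.232).

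Calls were also counted in a second list of 98 other redox genes (NRF2 cofactors and targets, cystine and glutathione metabolism, NADPH supply, thioredoxin relatives), chosen with earlier results of these data known and of which 90 were tested. In hypoxia 34 were called lower and 10 higher in bright than in dim cells, against 7 lower and 3 higher in normoxia, beside the shares of all genes given above. Among the 3 with the lowest adjusted p on the lower side in hypoxia were OSGIN1, an oxidative stress growth inhibitor (-1.36 ± 0.16, adjusted p = 0.000139), and GSTO1, an omega-class glutathione transferase (-0.45 ± 0.06, adjusted p = 0.000482). H6PD, the hexose-6-phosphate dehydrogenase of the endoplasmic reticulum, was among the 3 with the lowest adjusted p on the other side, with 2187, 2462 and 2122 in hypoxic bright and 1141, 1272 and 1105 in hypoxic dim libraries (0.94 ± 0.11, adjusted p = 8.03e-05). The others were NNT, the mitochondrial transhydrogenase that makes NADPH (0.49 ± 0.09, adjusted p = 0.00168), and MLXIP, a glucose-sensing transcription factor that acts on TXNIP (0.45 ± 0.08, adjusted p = 0.00178). These 5 calls were kept under all 20 alternatives.

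In normoxia the 3 with the lowest adjusted p among those lower in bright than in dim cells were MAFF, a small MAF partner of NRF2 and BACH1 (-0.81 ± 0.11, adjusted p = 0.00048), SQSTM1, the autophagy receptor that binds KEAP1 (-0.55 ± 0.09, adjusted p = 0.00188), and ALDH1L2, a mitochondrial folate enzyme that makes NADPH (-0.93 ± 0.20, adjusted p = 0.0113). MAFF and SQSTM1 were kept under all 20 alternatives, and ALDH1L2 was lost without normoxic dim replicate 2 (-0.78, adjusted p = 0.0633). Those higher were NFE2, a factor related to NRF2 and known for its role in megakaryocytes (0.56 ± 0.13, adjusted p = 0.0167), ARRDC4, a relative of TXNIP (0.51 ± 0.12, adjusted p = 0.0204), and ALDH3A1, an aldehyde dehydrogenase (4.83 ± 1.23, adjusted p = 0.0309). NFE2 was lost without replicate 2 or 3 of either normoxic group (0.52 to 0.54, adjusted p 0.0564 to 0.071), and ARRDC4 without any 1 of the 3 normoxic dim replicates or normoxic bright replicate 2 or 3 (0.43 to 0.54, adjusted p 0.0503 to 0.083). ALDH3A1 rested on normoxic bright replicates 1 and 2, with 182 and 469 against 15 in replicate 3 and 2 to 4 in normoxic dim libraries. The same 2 bright libraries had the higher airway sums, 3587 and 7310 against 281, and the call was lost without that pair (2.03, adjusted p = 0.599) as without any 1 of the 3 normoxic dim replicates or normoxic bright replicate 1 or 2 (3.79 to 5.0, adjusted p 0.0789 to 0.142). SLC7A11, the cystine carrier that feeds glutathione synthesis and was picked out after its values were seen, was called lower in bright cells in normoxia, at 1403, 1800 and 1910 in normoxic bright against 2408, 3152 and 3106 in normoxic dim libraries (-0.76 ± 0.17, adjusted p = 0.0132), a call lost without normoxic dim replicate 2 or 3 (-0.71 and -0.69, adjusted p 0.0637 to 0.0668). Its hypoxic values were 1491, 1514 and 1505 in bright and 1359, 1725 and 2278 in dim libraries. These overlapped, and SLC7A11 did not pass between bright and dim cells in hypoxia. Between hypoxia and normoxia 1 of the 90 passed, OSGIN1 in bright cells (-0.89 ± 0.16, adjusted p = 0.0288), a call lost without replicate 1 of either bright group, hypoxic bright replicate 2 or normoxic bright replicate 3 (-0.93 to -0.73, adjusted p 0.0538 to 0.169), and 0 passed in dim cells.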

How the data were processed

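RNA of 12 libraries was sequenced. Per the submitters' processing notes, reads were trimmed with Trimmomatic 0.39 and aligned with STAR 2.4.2a to hg38. How reads were counted, on which annotation and with or without strand, is not given in the sources used here. The deposited value per gene is a score in whole numbers. From the values it looks like a read count divided by a factor per library and rounded, since median-of-ratios size factors computed from it were 1.00303 to 1.00422. The values were therefore not treated as raw counts, no count test was used and raw depth was not estimated here. Transcript length, also in the deposited table, gave levels per kilobase.

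The 28395 genes were filtered to 15057 that reached 10 in 3 or more libraries. Values were transformed as log2(value + 1), which understates changes of low genes, and fitted with limma 3.58.1 in R 4.3.3 with a mean trend and 1 mean for each of the 4 groups, leaving 8 residual degrees of freedom. P-values are two-sided and Benjamini-Hochberg adjusted over all genes tested in each of 5 comparisons, and a gene was called at an adjusted p under 0.05. The fit was tested on simulated data. Replicates correlated at 0.948 to 0.991 within groups and 0 pairs of libraries were identical.

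The 38 genes, the 98 other redox genes, the marker lists and the tests were chosen with earlier results of these data known. Values in every library were to be given for the regulators and for genes called with a fold of at least 1.5, and the other redox genes named were up to 3 per direction and comparison with the lowest adjusted p, of which 1 is not reported here. Other genes given in every library, among them SRXN1, GSR and TXNRD1, were chosen after their values were seen. Alternatives were another scaling, filter, pseudocount, threshold and variance model, a replicate block, only the groups compared, each library left out, and libraries high in markers of other cell types left out or those markers as a covariate. The muscle covariate, and the alternatives for the other redox genes, were added after seeing the data.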

Additional observations from a re-analysis of the deposited data

Results flagged for a closer look

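Among the 90 other redox genes tested, 6 differed between bright and dim cells in the effect of hypoxia by a test of that difference. Of these 1 was higher and 5 were lower, where 1.10% of all genes tested were called higher and 1.26% lower. The list was chosen with earlier results of these data known. The difference is given here as bright minus dim on the log2 scale, with limma's adjusted p. H6PD, the hexose-6-phosphate dehydrogenase of the endoplasmic reticulum, differed by 0.79 (adjusted p = 0.0213), with 2187, 2462 and 2122 in hypoxic bright, 1141, 1272 and 1105 in hypoxic dim, 1866, 1488 and 1640 in normoxic bright and 1374, 1681 and 1439 in normoxic dim libraries. PIR, a nuclear protein of the cupin family, differed by -0.84 (adjusted p = 0.0396), with 178, 185 and 199 in hypoxic bright, 327, 353 and 385 in hypoxic dim, 254, 232 and 302 in normoxic bright and 299, 243 and 289 in normoxic dim libraries. The H6PD call was lost without hypoxic bright replicate 1 or 2, normoxic bright replicate 2, or normoxic dim replicate 2 or 3 (0.71 to 0.82). The PIR call was lost without hypoxic bright replicate 1 or 2, hypoxic dim replicate 2, or replicate 2 or 3 of either normoxic group (-0.92 to -0.73).

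The other 4 were low in most libraries. ALDH3A1 differed by -9.17 (adjusted p = 0.0216), GPX2, an epithelial glutathione peroxidase, by -8.93 (adjusted p = 0.035), OPLAH, which recycles oxoproline to glutamate, by -6.43 (adjusted p = 0.0457), and CBR1, a carbonyl reductase, by -4.64 (adjusted p = 0.0396). ALDH3A1 had 7, 19 and 3 in hypoxic bright, 23, 712 and 312 in hypoxic dim, 182, 469 and 15 in normoxic bright and 3, 2 and 4 in normoxic dim libraries. GPX2 had 2, 10 and 1 in hypoxic bright, 12, 395 and 142 in hypoxic dim, 88, 155 and 5 in normoxic bright and 0, 7 and 0 in normoxic dim libraries. Both were highest in hypoxic dim replicate 2, which had the highest airway marker sum. The ALDH3A1 call was lost without hypoxic bright replicate 1, hypoxic dim replicate 2, normoxic bright replicate 2, or normoxic dim replicate 2 or 3 (-9.35 to -8.13), and the GPX2 call without these or hypoxic bright replicate 2 or 3 (-9.93 to -7.86). The CBR1 call was lost without the same libraries as ALDH3A1 or hypoxic bright replicate 3 (-4.69 to -3.92). The OPLAH call was lost without any 1 of the 3 hypoxic bright replicates, replicate 1 or 2 of hypoxic dim, or replicate 2 or 3 of either normoxic group (-7.10 to -5.31). With the log2 airway sum as a covariate, or without the pair of libraries highest in airway markers, 0 of the 6 passed. With the covariate the difference was 0.93 for H6PD, -1.04 for PIR, -6.68 for OPLAH, -2.45 for CBR1, -2.41 for ALDH3A1 and -2.27 for GPX2. Without the pair it was 0.77 for H6PD, -0.93 for PIR, -6.24 for OPLAH, -3.92 for CBR1, -7.12 for ALDH3A1 and -6.95 for GPX2.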

How the results depend on the processing

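With all libraries, the numbers of the 38 genes called were 18 for bright against dim cells in hypoxia, 6 for the same in normoxia, 1 for hypoxia against normoxia in bright cells, 0 in dim cells and 0 for the difference of the effects. For the other redox genes they were 44, 10, 1, 0 and 6. Of the 25 calls on the 38 genes 6 were kept under every alternative run and 0 reversed. Of 165 results not called 30 were called under some alternative, 1 of them in the other direction, GPX1 at 0.28 without hypoxic dim replicate 1, which is also the library highest in granule markers. The share of all genes called also moved with the setting and is given in parentheses, mostly beside counts of the 38 genes. Counts of the other genes under the same setting come from the same fit. A count with no share for its fit cannot be set against all genes. In hypoxia the 18 (26.5%) became 9 (12.6%) at an adjusted p under 0.01, 7 (7.54%) without the pair highest in muscle markers and 8 (11.9%) with the airway covariate, and 9 to 17 (15.2% to 28.9%) with single libraries left out; the 44 became 28 with no filter, 23 at the stricter threshold, 28 and 17 without the airway and muscle pairs, 21 with the airway covariate, and 28 to 42 with single libraries left out. The hypoxic muscle pair had sums of 1232 and 898, against 650 to 875 in the other hypoxic libraries. Its counts therefore cannot show a dependence on muscle transcripts. In normoxia the 6 (6.66%) became 3 (5.63%) with no trend, 2 (2.26%) with no filter and 1 (3.17%) at the stricter threshold. The count was 3 (5.24%) without the granule library, and 1 (4.38%) and 3 (4.21%) with the airway and muscle covariates. With single libraries left out it was 2 to 4 (4.06% to 6.63%). Some of these counts include genes not called with all libraries. Without the airway pair, which leaves 1 normoxic bright library, each of the 6 calls was lost. The 10 became 3 with no filter, 2 at the stricter threshold, 4 without the airway pair, 4 and 6 with the airway and muscle covariates, and 3 to 9 with single libraries left out. For hypoxia against normoxia in bright cells the count of the 38 genes was 0 under no trend, no filter, the stricter threshold, without either marker pair or the granule library and with either covariate, and 0 to 1 with single libraries left out, while the share of all genes, 0.837% with all libraries, was 0.0797% to 0.777% under those 8 settings and 0.0465% to 0.797% without single libraries. The count of other genes was 0 under no trend, no filter, the stricter threshold and without either pair, 2 under upper-quartile scaling, a pseudocount of 0.1 and the airway covariate, and 0 to 2 with single libraries left out. In dim cells the counts became 3 and 6 (4.42% of all genes) without the airway pair, 2 for other genes without the granule library, and 0 to 4 and 0 to 5 with single libraries left out. For the difference, the count of the 38 genes was 3 (6.61%) without the muscle pair, 3 (3.31%) without the granule library and 0 to 9 (0.339% to 10.1%) with single libraries left out. That of other genes was 0 with no trend, no filter, the stricter threshold, the airway covariate or the airway pair left out, 3 with a filter at a mean of 50, 1 with a pseudocount of 10, 11 without the muscle pair and 0 to 14 with single libraries left out. The cause of these changes was not tested. Using only the groups compared was not run for the difference, which uses all groups. With 3 libraries per group the standard errors were 0.68 for ME1 and 1.08 for GPX8, both low, and 0.69 for HMOX1, in comparisons of 2 groups.

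Same-numbered replicates did not all deviate from their group means together, at correlations of -0.05, 0.32 and -0.03 for bright with dim in hypoxia and 0.45, 0.06 and 0.18 in normoxia, and -0.23, 0.20 and 0.20 for hypoxia with normoxia in bright and 0.07, -0.14 and 0.17 in dim cells, so some pairs deviated together, such as replicate 1 of the normoxic groups, and the numbers were not taken to pair the samples. With a replicate block the counts for the 38 genes were 16 and 5 for bright against dim cells in hypoxia and normoxia. They were 2 and 0 for hypoxia against normoxia in bright and dim cells and 2 for the difference. For the other genes the counts, in the same order, were 46, 10, 3, 2 and 9. In normoxia 6.09% of all genes tested were called between bright and dim cells in that fit. No share is given for the other comparisons, so their counts cannot be set against all genes.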
